A study of Caenorhabditis elegans with 24 samples.

Results

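The C-type lectin genes of *C. elegans* were taken as all genes of the count table whose WormBase symbol is clec- followed by a number. The table held 240 such genes, and the 125 with at least 10 counts in at least 3 of the 24 libraries are the members described here, among 15256 genes that passed the same filter. Of the other 115 genes, 9 had no count in any library, and the highest count of any of them in a library was 84. RNA was sequenced from whole animals at day 1 of adulthood, grown at 20 °C on HT115 bacteria carrying the empty vector pL4440, with 3 biological replicates of about 800 animals per condition. The 4 genotypes were wild-type N2, animals overexpressing full-length *hsf-1* in neurons (*hsf-1FL*), animals overexpressing *hsf-1* without its C-terminal part in neurons (*hsf-1CTD*) and the mutant *hsf-1(sy441)*, whose own HSF-1 lacks the C-terminal part. Both transgenes were driven by the neuronal *rab-3* promoter. Untreated animals of each genotype were set beside animals that had spent 2 h at 34 °C and then 1 h back at 20 °C.

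C-type lectin-like proteins carry a fold that in many animals binds sugars. In *C. elegans* they form one of the largest gene families, many of whose products are predicted to be secreted, and many of the genes change their transcript level when the intestine meets a pathogen. HSF-1 is the transcription factor that drives the heat-shock response. For most of the genes named below no function is established, so they are described by their level, position and response.

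Library totals lay between 11215696 and 19794446 counts. *hsf-1* itself was at 137 ± 13.3 CPM in untreated N2, 74.7 ± 26.8 in *hsf-1(sy441)*, 148 ± 4.67 in *hsf-1FL* and 153 ± 16.3 in *hsf-1CTD* (SD, n = 3 each), and the counts do not separate transgenic from endogenous transcripts. CPM are counts relative to library size, after scaling by the TMM factor of the library. All genes of the lists of intestine, neuron, germline, epidermis, pharynx and muscle markers in the table had counts in every condition. In whole animals, fewer cells of a type and less RNA per cell cannot be told apart. The 50 tested sperm genes (names beginning with msp-, nspd-, ssp- or spch-) stood apart in several libraries of *hsf-1FL* and *hsf-1(sy441)*, and their values are given beside the members that moved with them.

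The members were spread over a wide range of levels, which were compared between genes per kb of exon. The 8 with the highest mean over the 24 libraries were *clec-87* (766 CPM per kb), *clec-63* (322), *clec-88* (268), *clec-91* (177), *clec-50* (118), *clec-1* (84.2), *clec-150* (67.9) and *clec-65* (37.5). In all, 27 members were above 10 CPM per kb and 48 were below 1. The plot of levels by rank shows that a few genes carried most of the signal of the family.

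**Figure D1:**
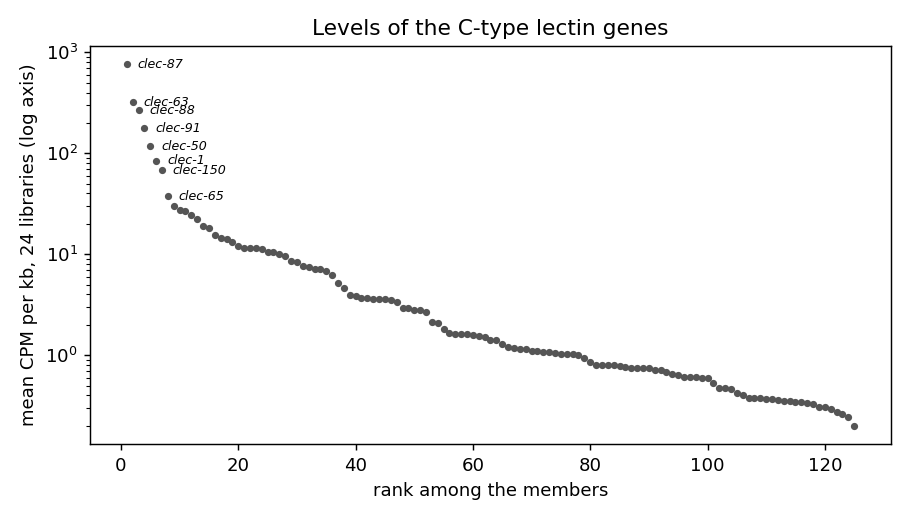
Mean level of each of the 125 C-type lectin genes over the 24 libraries in CPM per kb of exon (log axis) against its rank among them. The 8 highest genes are named, from *clec-87* at 766 to *clec-65* at 37.5 CPM per kb.

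Most of these abundant genes differed little between untreated and heat-shocked animals. *clec-87* (chromosome I, 10184462 to 10185520 of WBcel235) was at 647, 712 and 800 CPM in untreated N2 and 614, 893 and 1028 CPM in heat-shocked N2. Its log2(fold-change) with heat was 0.23 in N2 and 0.17 in the *hsf-1(sy441)* mutant, 0.37 with full-length and 0.23 with truncated *hsf-1*, each with SE 0.25, so the change was of the size of its error. *clec-88*, *clec-91*, *clec-150*, *clec-63* and *clec-65* were likewise not called with heat in any genotype. Replicate 3 of *hsf-1(sy441)* was lower for *clec-87*, at 328 CPM untreated and 350 CPM heat-shocked, than the other replicates of that genotype, which were between 570 and 723 CPM. *clec-88* and *clec-91* were lowest in the same pair of libraries. The remaining pair of the 8, *clec-50* and *clec-1*, is described with heat.

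The members lie on all 6 chromosomes, with 14 on I, 28 on II, 8 on III, 36 on IV, 36 on V and 3 on X. All 125 are protein coding in Ensembl release 115, also of WBcel235, with start and end as in the table. Taking neighbouring members whose starts are within 20 kb as tandem groups, 71 members fell into 23 groups. Over the 24 libraries, the log2 CPM of the 48 neighbouring pairs had a median Pearson correlation of 0.36, between -0.21 and 0.92, against 0.17 for all 7750 pairs of members. These are descriptions over libraries that share conditions, and reads of similar neighbours may be shared, since how multi-mapping reads were handled is not given in the sources used here.

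To ask how the family responded to heat, each genotype was tested with and without heat-shock by edgeR's quasi-likelihood F-test, with P-values adjusted by Benjamini-Hochberg over all 15256 genes and an adjusted P-value under 0.01 making a gene a DEG. A single member, *clec-218*, fell in all 4 genotypes, and *clec-221* and *clec-178* rose in *hsf-1(sy441)*. The other members did not pass the threshold in any genotype. In N2, 0 members were called higher and 1 lower, against 0.537% and 0.131% of all genes. In *hsf-1FL*, 0 were higher and 1 lower (0.498% and 0.321% of all genes), and in *hsf-1CTD* 0 were higher and 1 lower (0.61% and 0.354%). In *hsf-1(sy441)*, 2 were higher and 1 lower, against 1.21% and 0.511% of all genes. A single member is 0.8% of the family, so these shares rest on very few genes.

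*clec-218* (chromosome V, 8307942 to 8310766) was the member with the clearest response. It was at 32.4, 29.4 and 19.1 CPM in untreated N2 and at 2.48, 5.85 and 2.72 CPM after heat-shock. In *hsf-1FL* it was at 27.5, 28.7 and 37.5 CPM untreated and 3.83, 4.15 and 6.45 CPM heat-shocked. In *hsf-1CTD* it was at 22.8, 31 and 36.2 CPM untreated and 4.64, 4.98 and 9.30 CPM heat-shocked. In every genotype, all 3 heat-shocked libraries lay below all 3 untreated ones. In *hsf-1(sy441)* the values were 30.3, 26.5 and 45.4 CPM untreated and 8.40, 12.2 and 8.38 CPM heat-shocked, the highest heat-shocked levels of the 4 genotypes on average.

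By the edgeR test, *clec-218* fell by 2.88 on the log2 scale in N2 (adjusted P-value 0.00015, SE 0.36) and by 2.7 in *hsf-1FL* (adjusted P-value 0.00035, SE 0.36). In *hsf-1CTD* it fell by 2.25 (adjusted P-value 0.0012, SE 0.35), and in *hsf-1(sy441)* by 1.82 (adjusted P-value 0.0040, SE 0.35). In *hsf-1CTD* the adjusted P-value was 0.014 without heat-shocked replicate 1 and 0.012 without heat-shocked replicate 2. In *hsf-1(sy441)* it was 0.027 without untreated replicate 3, 0.025 without heat-shocked replicate 1 and 0.011 without heat-shocked replicate 2. The interaction of heat with genotype for *hsf-1(sy441)* was 1.06 (SE 0.48, adjusted P-value 1.0), which was not called. Its tandem neighbour *clec-219*, whose start is 10493 bases away, did not share the pattern, with a Pearson correlation of 0.051 over the 24 libraries.

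*clec-80* (chromosome IV, 2823746 to 2828069) had the next largest decrease in N2 among members with a mean of at least 1 CPM. It was at 8.35, 4.31 and 6.06 CPM in untreated N2 and 0.759, 1.25 and 1.80 CPM in heat-shocked N2, and its untreated and heat-shocked libraries did not overlap in any of the 4 genotypes. Its log2(fold-change) was -2.29 in N2, -2.19 in *hsf-1(sy441)*, -1.93 in *hsf-1FL* and -1.83 in *hsf-1CTD*, with adjusted P-values of 0.018, 0.012, 0.034 and 0.042 by edgeR, short of the threshold. With the replicate number as a block within each genotype, which pairs same-numbered libraries, the adjusted P-value was 0.0027 in N2, 0.0032 in *hsf-1FL* and 0.0010 in *hsf-1(sy441)*, and *clec-80* was called in all of these.

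**Figure D2:**
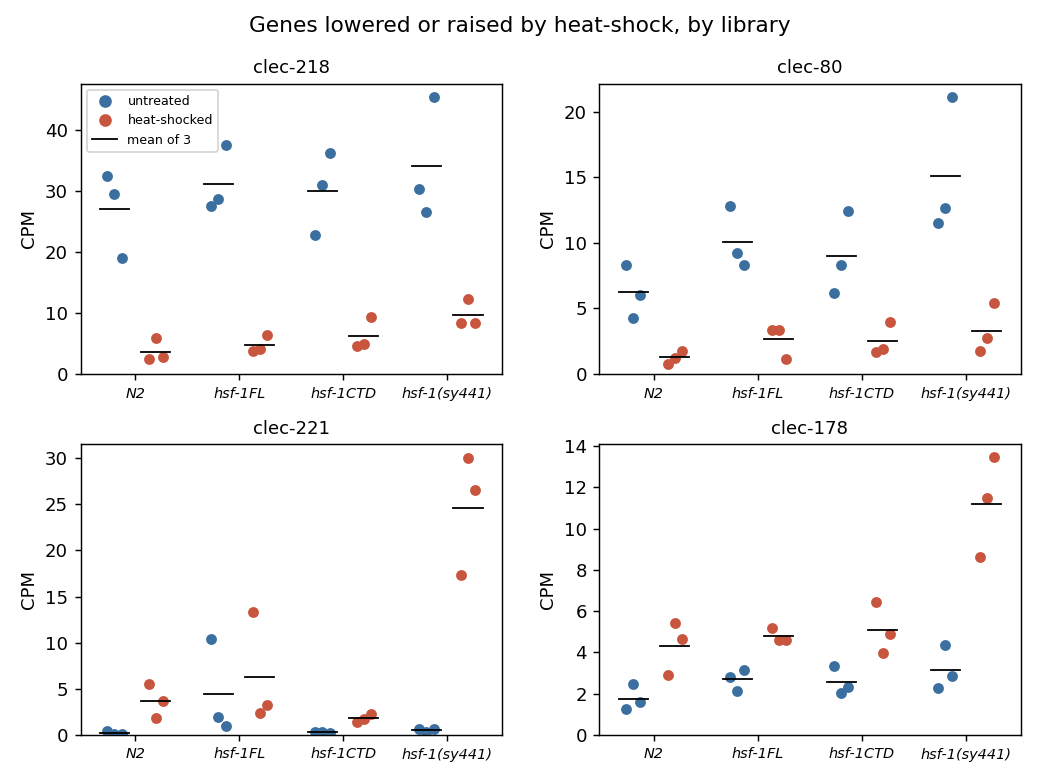
Level in CPM of *clec-218*, *clec-80*, *clec-221* and *clec-178* in each library (points) by genotype, untreated in blue and heat-shocked in red, with the mean of 3 libraries as a bar. *clec-218* and *clec-80* are lower in all heat-shocked libraries of each genotype, and *clec-221* reaches its highest level, 30.0 CPM, in heat-shocked *hsf-1(sy441)*.

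Other members had lower values after heat-shock in several genotypes without passing the threshold in the edgeR fit without a block. *clec-50*, the fifth most abundant member, was at 147, 114 and 143 CPM in untreated N2 and 104, 101 and 71.3 CPM in heat-shocked N2. Its log2(fold-change) was -0.55 in N2, -0.72 in *hsf-1CTD*, -0.49 in *hsf-1FL* and -0.80 in *hsf-1(sy441)*, with an edgeR adjusted P-value of 0.010 in the last, just above the threshold before rounding. In *hsf-1(sy441)* it was called in 6 of 7 alternative fits and in 7 of 24 fits without 1 library, with an adjusted P-value of 0.0020 with the replicate block within genotype. *clec-1* was at 157, 171 and 119 CPM in untreated *hsf-1(sy441)* and 25.7, 17.4 and 69.5 CPM after heat-shock, a log2(fold-change) of -1.99 (edgeR adjusted P-value 0.036). *clec-223* had a log2(fold-change) of -1.76 in *hsf-1(sy441)* (edgeR adjusted P-value 0.013) and -1.46 in *hsf-1FL* (0.049), and was called in both with the replicate block within genotype (adjusted P-values 0.00028 and 0.00081).

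*clec-7*, a gene of the infection list below, had one of the 3 largest changes in *hsf-1CTD*, with 6.94, 5.33 and 15.7 CPM untreated and 1.74, 1.24 and 2.44 CPM heat-shocked. Its log2(fold-change) there was -2.36 (SE 0.78, edgeR adjusted P-value 0.10), and in N2 it was -1.24. In N2 it was at 14.4, 1.79 and 3.23 CPM untreated and 6.22, 0.905 and 1.04 CPM heat-shocked. Replicate 1 was thus the highest in both treatments, and each heat-shocked library was below the untreated one of the same number. The value in N2 was 0.13 without untreated replicate 1, and reached -2.72 over the other fits. With the replicate block within genotype *clec-7* was called in *hsf-1FL* (adjusted P-value 0.0018) and *hsf-1(sy441)* (0.00019).

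*clec-221* (chromosome V, 10953453 to 10954434) was the member with the largest increase. In *hsf-1(sy441)* it was at 0.6, 0.322 and 0.665 CPM untreated and 17.3, 30.0 and 26.6 CPM heat-shocked, and it rose by 5.52 on the log2 scale (SE 0.87, edgeR adjusted P-value 0.00095). In N2 it was at 0.411, 0.133 and 0.0688 CPM untreated and 5.57, 1.88 and 3.65 CPM heat-shocked, a log2(fold-change) of 4.13 with SE 0.88 (adjusted P-value 0.017). In *hsf-1CTD* its log2(fold-change) was 2.7 (SE 0.85, adjusted P-value 0.087). The heat-shocked libraries lay above the untreated ones in these 3 genotypes. With the replicate block within genotype the adjusted P-value in N2 was 0.00047, and *clec-221* was called.

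In *hsf-1FL*, *clec-221* was also found without heat-shock. It was at 10.4, 1.95 and 0.921 CPM untreated and 13.3, 2.34 and 3.19 CPM heat-shocked, so the groups overlapped, and its log2(fold-change) was 0.51 (SE 0.70, edgeR adjusted P-value 0.88). Replicate 1 was the highest in both treatments, and each heat-shocked library was above the untreated one of the same number. Without heat-shocked replicate 1 alone the value was -0.68, and over the other fits it reached 2.12. The interaction of heat with genotype for *hsf-1FL* was -3.62 (SE 1.12, adjusted P-value 1.0), which was not called. In *hsf-1(sy441)*, the call of *clec-221* was lost without untreated replicate 2, with an adjusted P-value of 0.010.

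*clec-178* (chromosome IV, 5653949 to 5655003) was higher in all 3 heat-shocked libraries of each genotype. It was at 2.27, 4.38 and 2.84 CPM in untreated *hsf-1(sy441)* and 8.60, 11.5 and 13.5 CPM after heat-shock, and rose by 1.82 on the log2 scale (SE 0.34, edgeR adjusted P-value 0.0034). In N2 it was at 1.23, 2.45 and 1.58 CPM untreated and 2.88, 5.43 and 4.63 CPM heat-shocked, a log2(fold-change) of 1.29 (adjusted P-value 0.056, or 0.0084 with the replicate block within genotype). In *hsf-1FL* and in *hsf-1CTD* its log2(fold-change) was 0.83 and 0.99, not called. In *hsf-1(sy441)* the adjusted P-value of *clec-178* was 0.017 without untreated replicate 1, 0.023 without untreated replicate 3 and 0.014 without heat-shocked replicate 2.

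The remaining genes named for a large change with heat did not pass the threshold in the edgeR fit without a block. *clec-196* had a log2(fold-change) of 2.65 in *hsf-1FL* (SE 0.87, edgeR adjusted P-value 0.11), with 0.979, 0.504 and 0.395 CPM untreated and 4.22, 5.02 and 2.67 CPM heat-shocked, which did not overlap, and was called with the replicate block within genotype (adjusted P-value 0.0063). *clec-232* had 2.40 in *hsf-1CTD* (SE 1.82), and *clec-151* had -2.05 in *hsf-1FL* (SE 1.51). *clec-219* and *clec-197* had -5.17 and -3.95 in *hsf-1(sy441)* (SE 2.18 and 1.61), where both were under 2 CPM in every library. There *clec-219* had 0, 7 and 7 counts untreated and 0, 0 and 0 heat-shocked. *clec-197* had 0, 30 and 12 and then 0, 1 and 1. Their heat-shocked counts were under 3, the floor used for folds, so the size of these falls is not well measured. Both averaged 1 CPM or more mainly through *hsf-1FL*, where they were higher. *clec-232*, *clec-151*, *clec-219* and *clec-197* had levels that differed greatly between replicates, and their errors were large.

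Counting libraries rather than test results took in more members of the family, with more lower than higher in each genotype. In N2, 14 members had all 3 heat-shocked libraries below all 3 untreated ones, or 11.2% of the members against 6.46% of all genes. In *hsf-1FL* there were 21 (16.8%, against 13.5% of all genes), in *hsf-1CTD* 35 (28%, against 15.7%) and in *hsf-1(sy441)* 24 (19.2%, against 9.65%). In each genotype the share of the members was above that of all genes. The opposite order, with all heat-shocked libraries higher, was seen for 6 members in N2, 11 in *hsf-1(sy441)* and 7 each in *hsf-1FL* and *hsf-1CTD*. These are 4.8%, 8.8%, 5.6% and 5.6% of the members, against 8.52%, 10.7%, 12.2% and 15% of all genes.

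In all 4 genotypes at once, 3 members were lower in every heat-shocked library (2.4%, against 1.66% of all genes), namely *clec-218*, *clec-80* and *clec-187*. The 2 members that were higher in all 4 (1.6%, against 2.28% of all genes) were *clec-178* and *clec-142*, both shares being close to the background. *clec-187* was at 7.66, 6.96 and 8.46 CPM in untreated N2 and 6.38, 2.92 and 5.16 CPM heat-shocked. *clec-142* was at 0.958, 0.398 and 0.344 CPM in untreated N2 and 1.42, 2.72 and 1.56 CPM heat-shocked. By edgeR, neither was called in any genotype. DESeq2 with surrogate variables, which stand for variation between libraries that the conditions leave unmodelled, called *clec-187* in every genotype except N2 and *clec-142* in the mutant, where each was also called in 1 of 24 edgeR fits without 1 library.

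The median log2(fold-change) of the 125 members with heat was -0.16 in N2, and in *hsf-1FL*, *hsf-1CTD* and the mutant it was -0.52, -0.44 and -0.49. The medians of all genes tested were 0.02, -0.03, -0.02 and 0.06. Below 0 were 69, 97, 84 and 93 members, against 47.6%, 53%, 52.1% and 44.8% of all genes. Among the 80 members with a mean of at least 1 CPM, the medians were -0.24, -0.49, -0.40 and -0.51, close to those of all members. The members are not independent of each other, and no test was made over them.

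Markers of the intestine also had mostly lower values after heat-shock. Of the 7 in the table, which include *elt-2*, the GATA factor of the intestine, and *ges-1*, a gut esterase, 0 were called by edgeR with heat, but 7, 7, 7 and 6 had a negative log2(fold-change) in N2, *hsf-1FL*, *hsf-1CTD* and the mutant, with medians of -0.47, -0.57, -0.94 and -0.77. Their summed level was 1196 to 1293 CPM in untreated and 603 to 1058 CPM in heat-shocked N2, and 1184 to 1475 and 610 to 991 CPM in *hsf-1FL*. In *hsf-1CTD* it was 1253 to 1450 CPM untreated and 605 to 1027 CPM heat-shocked, and in *hsf-1(sy441)* 1496 to 1847 and 935 to 1140 CPM. The heat-shocked libraries were thus lower in every genotype, and 0 of the markers were at 0 in all 3 libraries of a condition. Other lists were given in the order N2, *hsf-1FL*, *hsf-1CTD* and mutant. Pharynx markers had medians of 0.22, -0.49, -0.40 and -0.05, and neuron markers -0.08, -0.26, -0.43 and 0.03. Germline markers had -0.05, 0.03, -0.17 and 0.0033, and epidermis markers -0.03, 0.07, -0.10 and -0.26. Muscle markers had 0.41, -0.07, -0.18 and 0.50. The part of the RNA of the intestine or another tissue in the values of the members was not tested.

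**Figure D3:**
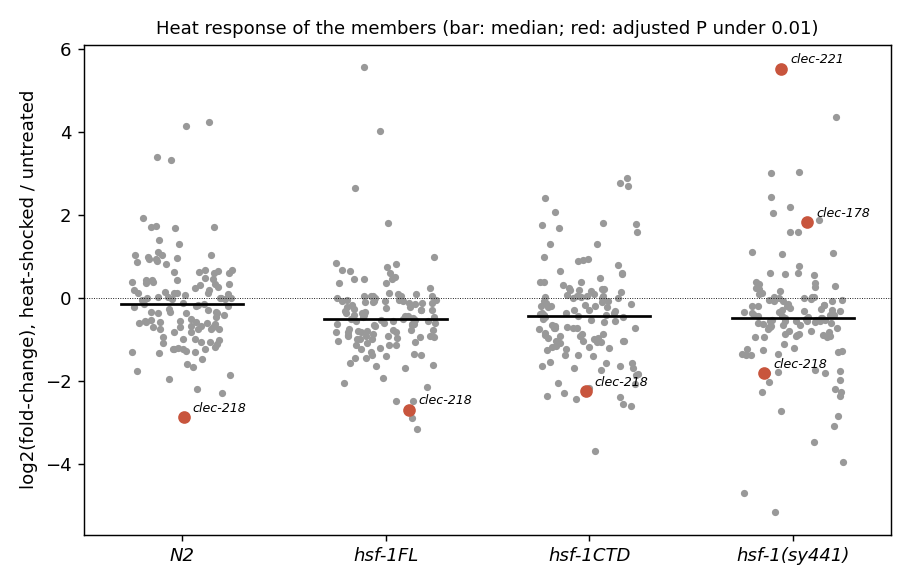
log2(fold-change) of heat-shocked against untreated animals for each of the 125 members (points, spread sideways at random) in the 4 genotypes, with the median as a bar and DEGs in red. The medians are -0.16, -0.52, -0.44 and -0.49, and *clec-218* is the DEG found in each genotype.

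The counts of DEGs were sensitive to pairing. With the replicate number as a block within genotype, 6 members were called in N2, 8 in *hsf-1FL* and 15 in *hsf-1(sy441)*, or 4.8%, 6.4% and 12% of the members against 2.08%, 3.49% and 6.09% of all genes. The members called in N2 were *clec-218*, *clec-221*, *clec-80*, *clec-48*, *clec-186* and *clec-178*, and 4 of these, *clec-218*, *clec-80*, *clec-48* and *clec-186*, were among the 8 of *hsf-1FL*, with *clec-223*, *clec-265*, *clec-7* and *clec-196*. Of the 15 in *hsf-1(sy441)*, 13 were lower and 2, *clec-221* and *clec-178*, were higher, where 2.77% of all genes were lower and 3.32% higher.

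Some tandem groups, picked after their values were seen, had mostly lower values after heat-shock. Other groups differed, as in that of *clec-94* to *clec-99*, where 0 of 5 members were negative in N2 and 4 in each other genotype. In the group of *clec-57*, *clec-227*, *clec-56*, *clec-54* and *clec-55* (chromosome V, 14469231 to 14482317), all 5 members had a negative log2(fold-change) in N2, *hsf-1FL* and *hsf-1CTD*, and 4 in *hsf-1(sy441)*, with medians of -0.83, -0.63, -0.93 and -1.31. *clec-56* was at 19, 23.5 and 25 CPM in untreated N2 and 8.45, 14.6 and 5.50 CPM heat-shocked. In the group of *clec-36*, *clec-26*, *clec-31* and *clec-28* (chromosome V, 16846811 to 16867293), all 4 were negative in all 4 genotypes. In the largest group, 9 members around *clec-67* to *clec-78* (chromosome IV, 3922165 to 4014235), 8, 9, 6 and 7 were negative. By edgeR without a block, 0 members of these groups were called. With the replicate block within genotype *clec-56* was called in *hsf-1(sy441)* (adjusted P-value 0.0017), as it was by DESeq2, and DESeq2 with surrogate variables called it in all 4 genotypes.

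Tandem position did not fix the pattern. In the group of *clec-94*, *clec-95*, *clec-96*, *clec-97* and *clec-99* (chromosome I, 11146448 to 11158833), *clec-97* was between 4.20 and 12.2 CPM in every library, whereas its neighbour *clec-96* was at or under 0.363 CPM outside *hsf-1FL*. The pair had a Pearson correlation of -0.18, while *clec-95* and *clec-96* had 0.89. *clec-136* and *clec-137* had 0.91, *clec-207* and *clec-208* 0.91, and *clec-151* and *clec-153* 0.92. The members of these last pairs belong to the sets described next.

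To see whether the level of the family depended on the *hsf-1* genotype, each genotype was compared with N2 of the same treatment. By edgeR, 0 members were called in any of the 6 comparisons. The share of all genes called was 0.0197% for *hsf-1FL* untreated, 0.0197% for *hsf-1CTD* untreated and 0.61% for *hsf-1(sy441)* untreated. In heat-shocked animals it was 0.0197%, 0.0131% and 0.891%. DESeq2, which leaves some genes without an adjusted P-value, called 6 of 121 members in untreated *hsf-1FL*, 4 of 110 in untreated *hsf-1(sy441)* and 9 of 110 in heat-shocked *hsf-1(sy441)*, all higher than in N2. These are 4.96%, 3.64% and 8.18% of the members, against 0.576%, 6.4% and 5.81% of all genes called higher. In untreated *hsf-1CTD*, heat-shocked *hsf-1FL* and heat-shocked *hsf-1CTD* DESeq2 called 0 members, against 0.0853%, 0.0984% and 0.109% of all genes.

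At an unadjusted P-value under 0.05, 33 members were higher and 3 lower in untreated *hsf-1FL*, or 26.4% and 2.4% of the members, against 6.84% and 0.603% of all genes. In heat-shocked *hsf-1FL*, 26 were higher and 2 lower (20.8% and 1.6%, against 4.52% and 1.82%). In untreated *hsf-1(sy441)*, 21 were higher and 5 lower (16.8% and 4%, against 16.2% and 13.4%), and in heat-shocked *hsf-1(sy441)* 20 and 4 (16% and 3.2%, against 16.6% and 8.43%). In *hsf-1CTD* there were 1 and 1 untreated (against 0.813% and 0.387%) and 3 and 2 heat-shocked (against 1.28% and 2.41%). The share of higher members was thus above that of all genes in *hsf-1FL* and near it in *hsf-1(sy441)*. Several members, such as *clec-136*, *clec-217* and *clec-219*, reached 10 counts in 3 libraries only through *hsf-1FL*, where they are high. The filter thus partly sets these shares and those of DESeq2 in *hsf-1FL*, so they only describe the members.

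The higher members of *hsf-1FL* were mostly genes near 0 elsewhere. A set was drawn up after their values had been seen, so it carries no test, from members under 1 CPM in all 12 libraries of N2 and *hsf-1CTD* and at 1 CPM or more in at least 2 libraries of *hsf-1FL*, without those that also reached 1 CPM in both replicate 3 libraries of *hsf-1(sy441)*. It held 21 members, which include 4 genes of the chromosome I group (*clec-94*, *clec-95*, *clec-96* and *clec-99*) and the pairs *clec-136* and *clec-137*, *clec-125* and *clec-126*, and *clec-207* and *clec-208*. The highest library was *hsf-1FL* untreated replicate 1 for 20 of the 21, and untreated replicate 3 for *clec-64*.

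*clec-197*, the most abundant of the set, was at 22.5, 5.29 and 2.17 CPM in untreated *hsf-1FL* and 21.4, 2.16 and 6.08 CPM in heat-shocked *hsf-1FL*. In N2 it was at 0.274, 0.133 and 0.0688 CPM untreated and 0.658, 0.0696 and 0 CPM heat-shocked, so the groups did not overlap. Its log2(fold-change) against untreated N2 was 5.91 (SE 1.42, edgeR adjusted P-value 0.16). *clec-136* was at 4.54, 1.70 and 1.12 CPM in untreated *hsf-1FL* and had no count in untreated N2. Measured against a floor of 3 counts per library, it was at least 12.1-fold higher in untreated *hsf-1FL*, and at least 6.93-fold without replicate 1 (edgeR adjusted P-value 0.030 with all libraries). *clec-219* was at least 26.7-fold higher in untreated *hsf-1FL*, and at least 10.7-fold without replicate 1. The rule of the set asks for low values in N2 and higher ones in *hsf-1FL*. The folds, P-values and lack of overlap of these genes therefore only describe them.

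Replicate 1 of *hsf-1FL* carried most of the set. Its summed level was 138 CPM in the highest untreated *hsf-1FL* library and 16.5 CPM in the lowest, and 107 and 10.4 CPM in heat-shocked *hsf-1FL*. In N2 it lay between 0.995 and 5.11 CPM, in *hsf-1CTD* between 1.22 and 6.13 CPM and in *hsf-1(sy441)* between 1.53 and 7.21 CPM. The rule of the set limits the sums in N2, *hsf-1CTD* and replicate 3 of *hsf-1(sy441)* and asks for higher ones in *hsf-1FL*, so these sums only describe it. The summed level of the 50 sperm genes moved with it in *hsf-1FL*, from 67.5 to 577 CPM untreated and 61.2 to 452 CPM heat-shocked, against 6.76 to 24.9 CPM in N2. In untreated replicate 2 of *hsf-1(sy441)*, which the rule of the set does not limit, the sperm genes summed to 467 CPM and the set to 7.21 CPM. Of 10 genes known from males, a list chosen after these values were seen, 5 were highest in *hsf-1FL* untreated replicate 1 and 5 in other libraries. The first 5 included *pkd-2* and *lov-1*, polycystins of male sensory neurons, at 1.47 and 0.909 CPM. The summed level of the 10 was 2.20 to 8.60 CPM in untreated *hsf-1FL* and 1.59 to 3.63 CPM in untreated N2, and 2.08 to 6.23 and 2.09 to 6.02 CPM in heat-shocked *hsf-1FL* and N2, so the ranges overlapped. *dmd-3*, a regulator of male development, was at 0 in that library. The part of sperm or male transcripts in the values of the set was not tested.

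**Figure D4:**
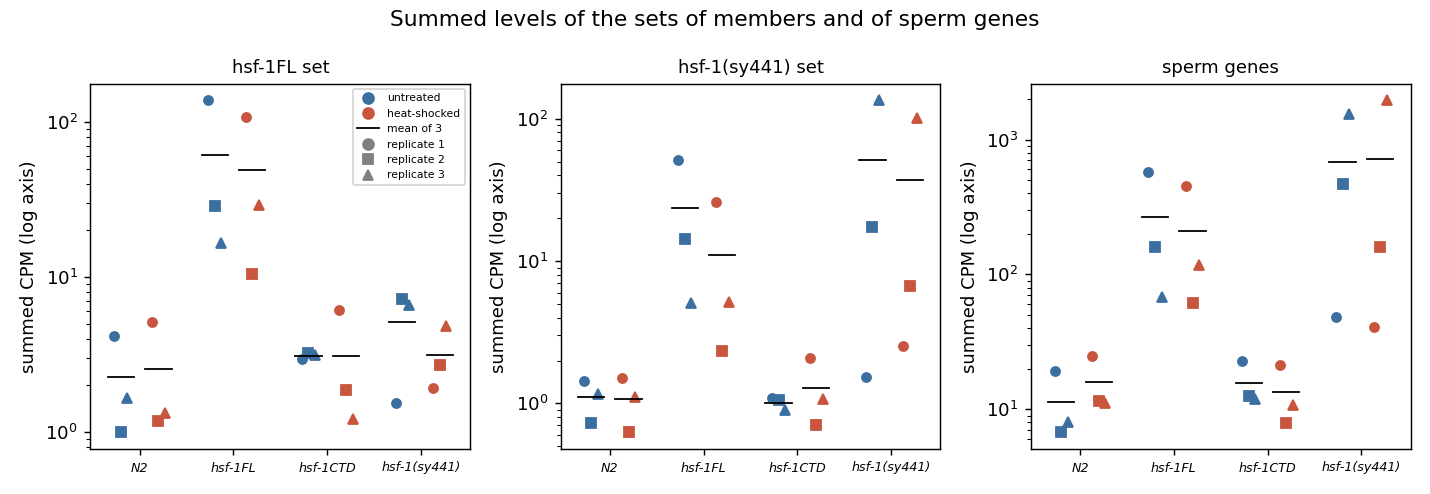
Summed CPM (log axis) of the 21 members of the *hsf-1FL* set, the 10 members of the *hsf-1(sy441)* set and the 50 sperm genes in each library, by genotype, treatment (colour) and replicate number (symbol), with means as bars. The rules of the sets fix where each is low and high. Within *hsf-1FL* the first runs from 10.4 to 138 CPM, and the sperm genes run from 61.2 to 577 CPM there.

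A further 10 members, under 1 CPM in all libraries of N2 and *hsf-1CTD*, reached 1 CPM in both replicate 3 libraries of *hsf-1(sy441)*. They were *clec-123*, *clec-79*, *clec-73*, *clec-151*, *clec-153*, *clec-119*, *clec-175*, *clec-117*, *clec-260* and *clec-3*, and this set too was chosen after its values had been seen. Their summed level was 135 and 102 CPM in those libraries, 1.53 and 2.51 CPM in the lowest untreated and heat-shocked *hsf-1(sy441)* libraries and 0.627 to 1.52 CPM in N2. *clec-123* was at 0.334, 4.83 and 32.0 CPM in untreated and 0.397, 2.36 and 29.5 CPM in heat-shocked *hsf-1(sy441)*. It was also at 11.7, 2.83 and 0.856 CPM in untreated *hsf-1FL*. Against untreated N2, its mean in *hsf-1(sy441)* was 60.4-fold higher, and 12.6-fold higher without replicate 3. With all libraries its log2(fold-change) was 5.87 (SE 1.62, edgeR adjusted P-value 0.037). Over the other fits it ran from 1.00 to 6.44, and 1 of 6 alternatives called the gene. In untreated N2 *clec-123* was at 0.274, 0.0663 and 0.275 CPM, near replicate 1 of *hsf-1(sy441)*. The rule of the set asks for low values in N2 and higher ones in replicate 3, so these values only describe the gene.

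The replicate 3 libraries of *hsf-1(sy441)*, by which these members were chosen, were also those with the highest sperm genes, so the choice itself favours a correlation between them. Over the 24 libraries, the Spearman rank correlation with the sperm genes' mean log2 CPM was 0.96 for *clec-153*, 0.94 for *clec-79*, 0.93 for *clec-123* and 0.91 for *clec-73*, and lowest for *clec-3* at 0.36. This correlation was over 0.75 for 10 of the 125 members (8%), against 4.5% of the 15206 tested genes other than the sperm genes. Of these members, 7 were of this set and 3, *clec-136*, *clec-96* and *clec-99*, of the *hsf-1FL* set. These are descriptions over libraries that share genotype and replicate number. The sperm genes summed to 1545 and 1956 CPM in the replicate 3 libraries of *hsf-1(sy441)* and to 48.2 and 40.5 CPM in the lowest untreated and heat-shocked ones, and their part in these members' values was not tested.

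Some members outside these sets were also higher in *hsf-1(sy441)* without passing the threshold. *clec-53* was at 4, 6.11 and 6.77 CPM in untreated *hsf-1(sy441)* and 0.889, 2.59 and 3.03 CPM in untreated N2, a log2(fold-change) of 1.37 with SE 0.38 (edgeR adjusted P-value 0.037). After heat-shock its log2(fold-change) was 1.57 (adjusted P-value 0.026). *clec-51* was at 13.6, 13.9 and 21.6 CPM in heat-shocked *hsf-1(sy441)* and 6.22, 10.3 and 7.30 CPM in heat-shocked N2, with a log2(fold-change) of 1.04 (adjusted P-value 0.043). *clec-178* and *clec-218* had 1.37 and 1.40 in heat-shocked *hsf-1(sy441)* against N2 (adjusted P-values 0.026 and 0.030). Untreated, their values were 0.85 and 0.34.

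The heat response of each genotype was then compared with that of N2 in an interaction term. By edgeR, 0 members were called, and 0% of all genes were called for *hsf-1FL*, 0% for *hsf-1CTD* and 0% for *hsf-1(sy441)*. DESeq2 also called 0 members in each, against 0.0131%, 0.0131% and 0.0394% of all genes, and with surrogate variables 0 members, against 0.00655%, 0% and 0.216%. At an unadjusted P-value under 0.05 there were 2, 1 and 4 members, or 1.6%, 0.8% and 3.2%, against 0.596%, 0.583% and 3.26% of all genes. They were *clec-221* and *clec-136* for *hsf-1FL*, *clec-136* for *hsf-1CTD*, and *clec-223*, *clec-218*, *clec-219* and *clec-197* for *hsf-1(sy441)*. Some of these terms rest on counts near 0. In N2, *clec-136* had 0, 0 and 0 counts untreated and 3, 1 and 0 heat-shocked. *clec-219* had 1, 0 and 0 and then 6, 0 and 0 in N2, and *clec-197* 4, 2 and 1 and then 13, 1 and 0.

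Some members differed between replicate numbers in every genotype. In the additive block fit, an F-test of the replicate number, chosen after this pattern had been seen, called 8 members, or 6.4%, against 1.69% of all genes. They were *clec-258*, *clec-47*, *clec-48*, *clec-222*, *clec-266*, *clec-150*, *clec-65* and *clec-223*. *clec-47* was at 0.205, 0.0663 and 2.89 CPM in replicates 1, 2 and 3 of untreated N2, and its replicate 3 was the highest of its group in all 8 conditions. *clec-258* was at 0.0699, 0.126 and 2.57 CPM in untreated *hsf-1FL* and also highest in replicate 3 throughout. *clec-222* and *clec-266* ran the other way, with *clec-222* at 30.2, 26.5 and 3.45 CPM in untreated *hsf-1(sy441)* and *clec-266* at 47, 11.3 and 3.36 CPM in heat-shocked N2. *clec-222* and *clec-223* are neighbours on chromosome V, 1797 bases apart from start to start.

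**Figure D5:**
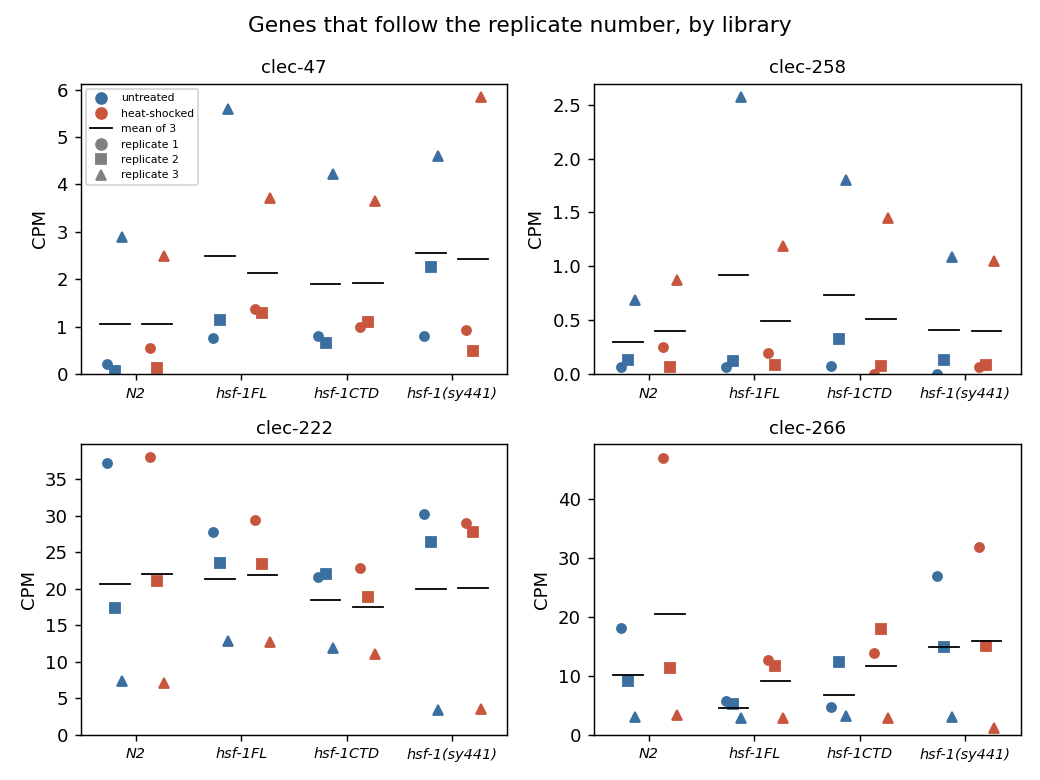
Level in CPM of *clec-47*, *clec-258*, *clec-222* and *clec-266* in each library by genotype, treatment (colour) and replicate number (symbol), with means as bars. Replicate 3 is the highest library of each condition for *clec-47* and *clec-258* and the lowest for *clec-222* and *clec-266*.

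A list of 18 C-type lectin genes known from infection experiments was drawn up from general knowledge, and 15 of them were among the members. By edgeR, 0 of the 15 were called with heat in any genotype, and 10, 13, 14 and 12 of them had a negative log2(fold-change) in N2 and then *hsf-1FL*, *hsf-1CTD* and the mutant, with medians of -0.19, -0.38, -0.44 and -0.41, beside the medians of -0.47 to -0.94 of the intestine markers. *clec-41* was the most abundant of them per kb, with 61.9, 53.4 and 34.3 CPM in untreated N2 and 36.8, 79.1 and 15.2 CPM in heat-shocked N2, groups that overlapped. *clec-49* was at 14.6, 8.49 and 17.4 CPM in untreated N2 and 9.36, 8.15 and 9.44 CPM in heat-shocked N2, with overlap too. In every genotype except N2, its heat-shocked libraries all lay below its untreated ones. The same held for *clec-41* in the mutant alone, at 107, 101 and 80.6 CPM untreated and 78.5, 72.1 and 67.1 CPM heat-shocked. *clec-60*, an intestinal gene raised by several bacterial infections, was at 0.267, 0.257 and 0.0605 CPM in untreated and 1.06, 1.22 and 0.973 CPM in heat-shocked *hsf-1(sy441)*, with no overlap there and overlap in the other genotypes.

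Other genes of innate immunity were counted for comparison. Of 24 tested regulators, 2 were called higher and 0 lower with heat in *hsf-1(sy441)*, against 1.21% and 0.511% of all genes. In the other genotypes 0 were called, against 0.131% to 0.61% of all genes by genotype and direction. They were *vhp-1*, a phosphatase of MAP kinases (log2(fold-change) 2.26, SE 0.32, edgeR adjusted P-value 0.00037), and *nhr-49*, a nuclear hormone receptor of lipid metabolism (0.48, SE 0.099, adjusted P-value 0.0070). Of 23 tested effectors other than the C-type lectins, *irg-2*, an infection response gene, was called higher in N2 (log2(fold-change) 4.52), *hsf-1CTD* (3.38) and *hsf-1(sy441)* (4.25), and 0 were called lower. In these genotypes 0.537%, 0.61% and 1.21% of all genes were called higher, and the counts of both lists rest on very few genes.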

How the data were processed

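The authors trimmed reads with Trim Galore 0.6.7-1, aligned them to WBcel235 with STAR 2.7.10a and counted them on genes with featureCounts of Subread 2.0.3. The values deposited by the authors are raw counts per gene, without normalization, for 46934 genes. The strand setting is not given in the sources used here. Each column was matched to its sample by name, and 0 columns were left over. Symbols were looked up by WormBase gene ID in a gene name table, which held 44113 of the 46934 IDs.

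Tests covered the genes that reached 10 counts in 3 or more libraries, by edgeR 4.0.16 (R 4.3.3, limma 3.58.1), with TMM scaling, 1 mean for each of the 8 conditions over all 24 libraries, and quasi-likelihood F-tests for 13 comparisons. Benjamini-Hochberg adjustment ran over 15256 genes, and 0.01 was the threshold. The biological coefficient of variation was 42.2%. log2 CPM used a prior count of 2. A level of 3 counts was the floor for folds. The P-values of this fit set a difference between condition means against the spread within conditions, estimated over all 24 libraries of these samples.

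Same-numbered libraries deviated together, with every correlation over 0.1 (from 0.25 to 0.81), for heat in N2, *hsf-1FL* and *hsf-1(sy441)*, and likewise for *hsf-1FL* against N2 in both treatments and heat-shocked *hsf-1CTD* against N2. The pairing comes from the data, since the labels give only the numbers. Alternatives were DESeq2 1.42.0, DESeq2 with 3 surrogate variables of sva 3.50.0, RLE factors, no filter beyond 1 count, only the libraries compared, an additive replicate block, a replicate block within genotype, a threshold of 0.05, and leaving out each library in turn. Named genes were members called in any comparison, the 8 with the highest CPM per kb, the 3 with the largest change with heat in each genotype among members averaging 1 CPM or more, members of the infection list and of tandem groups. Other genes named, such as *clec-53*, *clec-123*, *clec-187*, *clec-223* and those of the sets and of the replicate pattern, were chosen after their values were seen. The members and lists were chosen with earlier results of these data known. Tables were computed in Python 3.11.15 (pandas 2.3.3, numpy 2.4.6, scipy 1.17.1) and figures drawn with matplotlib 3.10.9.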

Additional observations from a re-analysis of the deposited data

How the results depend on the processing

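With DESeq2, 4, 3, 5 and 11 members were called with heat in N2, then *hsf-1FL*, *hsf-1CTD* and the mutant (2.45%, 3.37%, 4.15% and 4.9% of all genes), and 6, 4 and 9 for untreated *hsf-1FL*, untreated *hsf-1(sy441)* and heat-shocked *hsf-1(sy441)* against N2. With surrogate variables in DESeq2 these were 16, 10, 15 and 23 with heat (7.87%, 8.55%, 12.6% and 14.6% of all genes), 9, 5 and 4 against N2 (1.38%, 2.22% and 5.19%), and 7 and 1 for heat-shocked *hsf-1FL* and *hsf-1CTD* (1.28% and 0.96%). At an adjusted P-value under 0.05 in edgeR they were 3, 3, 4 and 10 with heat (1.98%, 3.21%, 3.36% and 5.3% of all genes) and 1, 5 and 6 in the same 3 comparisons with N2 (0.0852%, 8.32% and 5.94%). Without the filter 3 and 5 were called in N2 and *hsf-1(sy441)* (0.577% and 0.951% of all genes). With only the libraries compared, 0, 2 and 0 were called in N2, *hsf-1CTD* and *hsf-1(sy441)* (0.0658%, 1.48% and 0%). The additive replicate block gave 2, 2 and 6 in N2, *hsf-1FL* and *hsf-1(sy441)* (0.911%, 1.55% and 2.6% of all genes). The replicate block within genotype gave 6, 8, 8 and 15 in N2, *hsf-1FL*, *hsf-1CTD* and the mutant (2.08%, 3.49%, 3.88% and 6.09% of all genes). Of these, the 8 of *hsf-1CTD* rest on a shared number alone, since replicate 1 there had a correlation of -0.048. The additive replicate block changed no call of a member against N2, where the block within genotype was not fitted. Neither block changed a call of a member in the interactions. Leaving out 1 library gave 1 to 2 calls in N2 (2 without *hsf-1FL* untreated replicate 1 or 3, *hsf-1FL* heat-shocked replicate 1 or *hsf-1(sy441)* heat-shocked replicate 3), 0 to 1 in *hsf-1CTD*, 1 to 8 in *hsf-1(sy441)* (8 without its heat-shocked replicate 3, 1 without its heat-shocked replicate 2, 6 without N2 heat-shocked replicate 1, and 5 without heat-shocked replicate 3 of *hsf-1FL* or of *hsf-1CTD*) and 0 to 1 for heat-shocked *hsf-1(sy441)* against N2 (1 without N2 untreated replicate 1). *clec-218* remained called with heat in every genotype in all of these except fits of only the libraries compared in N2 and *hsf-1(sy441)*, and the omissions named in the report.

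A few log2(fold-changes) changed sign when 1 library was left out. Over these fits, that of *clec-221* ran from -0.68 to 2.12 with heat in *hsf-1FL* and from -0.42 to 1.18 for heat-shocked *hsf-1FL* against N2, lowest without *hsf-1FL* heat-shocked replicate 1 in both. With heat, that of *clec-7* in N2 ran from -2.72 to 0.13, highest without untreated replicate 1, and that of *clec-196* in *hsf-1(sy441)* from -1.21 to 0.24, highest without untreated replicate 1. That of *clec-266* ran from -0.46 to 1.76 in N2 and from -0.89 to 0.83 in *hsf-1(sy441)*, where it was -0.11 with the additive replicate block, -0.24 with the replicate block within genotype and -0.39 without untreated replicate 3. The cause of these changes was not tested. Depth limits the members with few counts, since 3 counts correspond to 0.14 to 0.26 CPM.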
